A study of Rattus norvegicus with 2 samples.

Results

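The genes studied here encode the machinery that moves membrane between the compartments of a cell: Rab and Arf GTPases, coat subunits, SNARE proteins and Vps proteins. They were measured in A7r5 cells, an established smooth muscle line from embryonic rat aorta. A gene was a member when the platform annotation gave its probe set a single rat symbol that began with Rab, Arf, Sec, Snap, Stx, Vamp or Vps and a digit, with Cop and one of a, b, g, e or z, or was Ykt6. This gave 135 of 10411 genes, read by 175 probe sets. Both groups were infected for 72 hours with adenovirus at a multiplicity of infection of 10 (1 meaning 100 particles per cell) and, per the labels, were kept in 5.5 mM glucose. The GLUT1 group received virus with a human cDNA for GLUT1, a carrier that lets glucose cross the membrane, and the control group received the virus without an insert. RNA of 3 days was pooled into 1 sample per group, and 1 array was hybridised per pool. Both groups share the infection itself. The description field of both samples, the control included, names GLUT1 over-expression, so groups were taken from the titles and source names. The sign of every log2 ratio rests on these, and no probe set here checks it. The comparison asks how more GLUT1 alters gene expression in vascular smooth muscle cells.

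Secreted and membrane proteins enter the endoplasmic reticulum (ER) through the Sec61 channel and leave it in vesicles with a COPII coat. COPI vesicles return material from the Golgi apparatus and move it within that organelle. Rab and Arf proteins are molecular switches that, when bound to GTP, mark a membrane and recruit coats, tethers and motors, and SNARE proteins on both membranes then zip together to fuse them. Vps proteins form the retromer, tethering and ESCRT complexes that sort cargo in endosomes. GLUT1 itself is a cargo of this system: the retromer with sorting nexin 27 returns it from endosomes to the cell surface.

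Every value below is a deposited intensity or the log2 ratio of the GLUT1 array over the empty-virus array, after scaling and with a floor at an intensity of 175. Genes whose mean log2 intensity reached 8.99, the median of all probe sets, were taken as measured. This left 105 of the 135 members, and 30 lay below. Of all 10411 genes, 6114 were measured and 4297 lay below. The nearest members on either side of this limit were Stx3, left out at 466 on the empty-virus and 523 on the GLUT1 array, and Rab33b, kept at 474 and 575. Neither group has a replicate array, so no p-value or standard error was computed, and a member is called higher or lower by size alone, at a log2 ratio of 0.25 (1.19-fold) either way. A difference is also given in local spreads, the local spread being a robust SD of the log2 ratios of 501 measured probe sets of like brightness. Near the filter most of these 501 are brighter than the gene, and at the top of the range most are dimmer. In RNA from whole cultures, fewer cells of a type and less RNA per cell cannot be told apart.

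The cells carried smooth muscle markers on both arrays: 6 of 7 were measured, among them Acta2, the smooth muscle actin, at 16303 and 16687, while Myh11, the smooth muscle myosin heavy chain, lay below the filter at 227 and 228. The 7 summed to 39369 in the empty-virus pool and 39550 in the GLUT1 pool. None of 3 endothelial or 4 leukocyte markers on the array was measured, and their summed intensities were 317 and 304, and 897 and 794. Krt8, at 6193 and 6500, was the 1 of 3 epithelial markers that was measured. Syp, at 1065 and 922, was the 1 of 3 neuronal and endocrine markers. The summed intensities of these lists were 6270 and 6655, and 1164 and 1013. The rat probe set for Slc2a1 read 2902 and 3121. It was designed for the rat gene and the vector carries the human one, so it does not check the labels.

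The membrane traffic genes as a set were alike on both arrays. The 105 measured members had a median log2 ratio of 0.00, 53 of them above and 52 below 0, and all 6114 measured genes had a median of 0.01. Of the members, 6 were called higher (5.71%), where 4.27% of all measured genes were, and 1 was called lower (0.952%), where 3.25% were. No member differed by 2-fold either way, where 0.0164% of measured genes were higher and 0 of them, or 0%, were lower by that size. The SD of the log2 ratio was 0.122 among members and 0.140 among all measured genes. Beyond 2 times the local spread lay 4 members above and 2 below, or 3.81% and 1.90%, beside 2.94% and 2.54% of all measured genes. The shares of higher members were near the background, the lower shares rest on 1 and 2 genes, and no difference has a replicate behind it. Rab33b, among the 6 called higher, passed the brightness filter only through its GLUT1 reading.

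**Figure D1:**
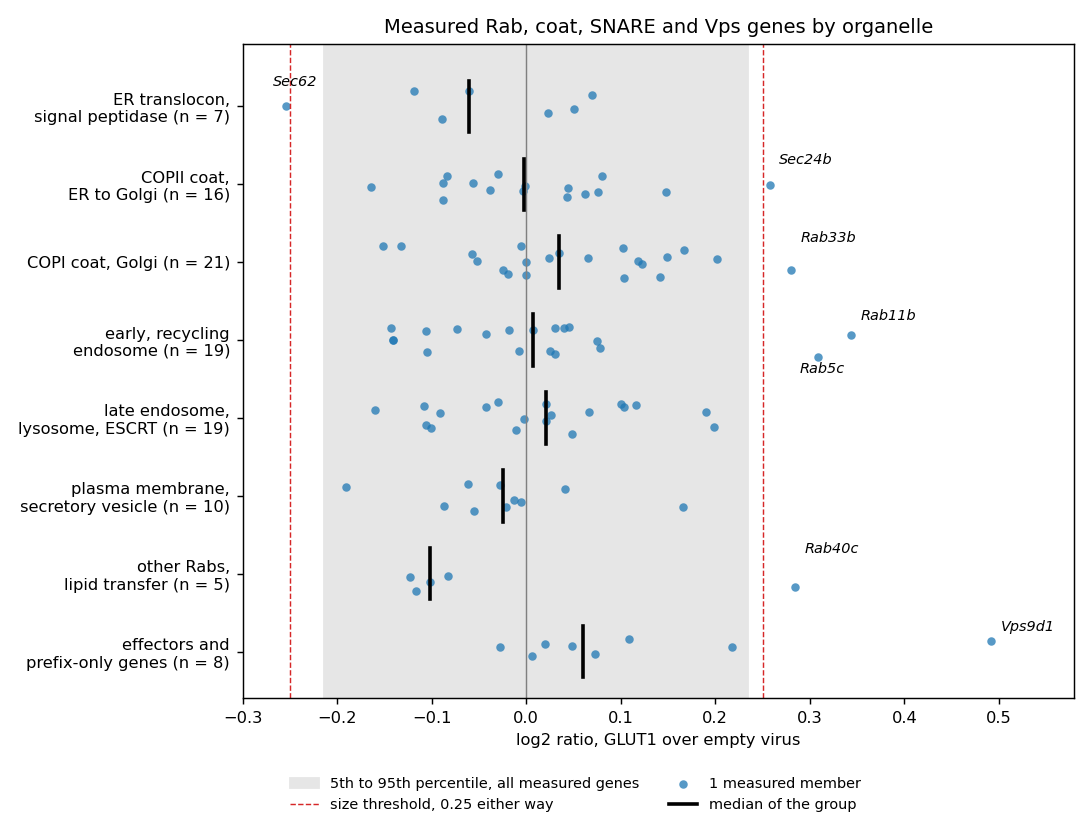
Each point is 1 of the 105 measured members, placed by its log2 ratio (GLUT1 over empty virus, horizontal axis) in its organelle group, with a random vertical offset and a bar at the group's median. Most points lie inside the grey band, the 5th to 95th percentile of all measured genes (-0.21 to 0.24), and the 7 named members lie beyond the dashed lines at 0.25 either way.

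At the entry to the ER, 7 of 8 members were measured, with 3 above and 4 below 0 and a median log2 ratio of -0.06. Sec62, a membrane protein that helps short and slowly targeted proteins into the Sec61 channel, had intensities of 2321 and 1944, giving a log2 ratio of -0.25, or 2.19 local spreads. It was the only measured member called lower. Its second probe set read 1216 and 1164, a log2 ratio of -0.06, so the lower value rests on 1 of its probe sets. The channel subunits did not share a direction. Sec61a1, the pore-forming subunit, had log2 ratios of 0.07 and -0.13 on its probe sets, and its paralogue Sec61a2 had -0.12. Sec61b, at 6894 and 7135, had 0.05, and Sec61g, at 18728 and 17592, had -0.09. The catalytic signal peptidase subunits Sec11a and Sec11c, which trim the signal sequence, had log2 ratios of -0.06 and 0.02. Sec63, the partner of Sec62, lay below the filter at 377 and 422.

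Between the ER and the Golgi, 16 of 18 members were measured, with 7 above and 9 below 0 and a median log2 ratio of 0.00. The inner COPII coat is built of Sec23 and Sec24, of which Sec24 binds the cargo, and the outer cage of Sec13 and Sec31. Sec24b had intensities of 664 and 793, giving a log2 ratio of 0.26, or 1.60 local spreads, and was the 1 member called higher in this group. The related Sec24c and Sec24d had log2 ratios of -0.09 and 0.08, so the 3 measured Sec24 genes spanned 0.346 on the log2 scale. Sec13 was read at 8390 and 8643 (0.04), Sec23b at 3677 and 3576 (-0.04) and Sec31a at 1623 and 1796 (0.15). These coat genes lay within 2 times the local spread. Sec16a, the scaffold of ER exit sites, had -0.09. Rab1a, the GTPase that tethers COPII vesicles at the Golgi, stood at 14293 and 13729, with a log2 ratio of -0.06. Rab1b, its close paralogue, stood at 1397 and 1245, with a log2 ratio of -0.16. Rab2a and Rab2b, which act on the same step, had 0.04 and -0.08, and the second probe set of Rab2b had 0.08. The SNAREs of the step, Stx5, Stx18, Sec22a, Sec22b and Ykt6, lay between -0.03 and 0.08.

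At the Golgi, 21 of 23 members were measured, with 13 above and 8 below 0 and a median log2 ratio of 0.03. The symbol rule picked 8 genes of COPI subunits, which need not be the whole coat. All 8 were measured, with 3 above and 5 below 0, and their log2 ratios ran from -0.13 for Copb1 (4630 and 4221) to 0.12 for Cope (2593 and 2820). Copa, the large subunit of the outer coat, had intensities of 8195 and 8793, giving a log2 ratio of 0.10, or 1.26 local spreads. The COPI subunits read here thus had no common direction, and none was called. Arf1, the GTPase that loads COPI onto membrane, stood at 17977 and 17265, with a log2 ratio of -0.06, and its second probe set gave -0.02. Arf4, at 9403 and 9832, had 0.07, and Arf5, at 4128 and 4475, had 0.12. Arf2 had 0.10 and 0.17 on its probe sets, and Arf3 had -0.01 and -0.15.

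Among the Golgi Rabs, Rab33b, which acts in the Golgi stack and in autophagosome formation, was read at 474 and 575. Its log2 ratio of 0.28 was called higher but was 1.34 local spreads, a spread that is wide at this low brightness. On the empty-virus array Rab33b lay under the filter's intensity of 507. Rab33b thus entered only through its higher GLUT1 reading, which also gave the call. Rab6a, the GTPase of return traffic through the Golgi, stood at 4332 and 4328, with a log2 ratio of 0.00. Rab34 had 0.02 on its brighter and -0.21 on its second probe set. The SNAREs of the trans-Golgi network, Stx6 and Stx16, were read at 1354 and 1500 and at 1109 and 1274, log2 ratios of 0.15 and 0.20. The tethering complex GARP, which receives vesicles from endosomes, was read through 3 subunits. Vps54 had -0.15, at 1217 and 1095, while Vps53 had 0.14, at 1594 and 1757. Vps52 had 0.17 on its brighter and -0.15 on its second measured probe set, so the subunits of this complex did not share a direction.

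Rab11b and Rab5c, the Rab genes with the highest log2 ratios, both belong to early and recycling endosomes. Of 23 members 19 were measured, 10 above and 9 below 0, with a median log2 ratio of 0.01. Of these, 2 were called higher (10.5%), beside 4.27% of all measured genes, so this share rests on 2 genes and describes no trait of the organelle. Rab11b, a GTPase of the recycling endosome that sends cargo back to the surface, had intensities of 4180 and 5299, giving a log2 ratio of 0.34 (1.27-fold), or 3.80 local spreads. A second probe set of Rab11b read 3013 and 3143, a log2 ratio of 0.06, so the readings of this gene differ by 0.28 and only the brighter one is called. Rab11a, the closest relative of Rab11b, stood at 3557 and 3617, with a log2 ratio of 0.03, and at 0.13 on its second probe set. Rab5c, 1 of 3 Rab5 genes that control fusion of early endosomes, had intensities of 1398 and 1730, giving a log2 ratio of 0.31 (1.24-fold), or 2.59 local spreads, by its only probe set. Rab5a stood at 1674 and 1651 (-0.02), and its second probe set gave -0.03. Rab5b, at 3073 and 2781, had -0.14 and 0.00. The 3 Rab5 genes thus spanned 0.451 on the log2 scale, the widest range among the paralogue sets compared, which each hold at least 2 measured genes.

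The promoters of both GTPases are shown because these members had the largest log2 ratios among the Rabs. Each is the stretch of 250 bases before the annotated start in RefSeq's rat assembly GRCr8, on the minus strand, at chr7:15236755-15237004 for Rab11b and at chr10:86166450-86166699 for Rab5c. Capitals mark a CCAAT box, here on the opposite strand, which starts 94 bases before the start of Rab11b and 78 before that of Rab5c. CCAAT was found on either strand in this window in 33.6% of 113 members with a promoter in the table and in 36.6% of 8610 genes on the array, so the match does not set these genes apart.
Rab11b: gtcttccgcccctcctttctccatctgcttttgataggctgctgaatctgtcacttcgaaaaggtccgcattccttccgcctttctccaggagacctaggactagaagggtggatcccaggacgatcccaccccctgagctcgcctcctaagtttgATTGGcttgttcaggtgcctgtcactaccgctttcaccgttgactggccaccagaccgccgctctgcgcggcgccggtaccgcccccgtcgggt
Rab5c: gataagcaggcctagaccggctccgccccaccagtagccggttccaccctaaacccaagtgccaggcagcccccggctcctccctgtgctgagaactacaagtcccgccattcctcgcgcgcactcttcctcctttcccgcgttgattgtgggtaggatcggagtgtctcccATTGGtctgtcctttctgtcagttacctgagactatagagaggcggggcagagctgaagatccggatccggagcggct

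Other endosomal GTPases were close to 0 or slightly lower. Rab31, of traffic between the Golgi and endosomes, stood at 2760 and 2501, with a log2 ratio of -0.14, and Rab14 had -0.11, 0.01 and 0.06 on its 3 measured probe sets. Rab22a had 0.08, Rab35 0.04 and Rab4b 0.03. Arf6, the Arf of the cell surface and recycling endosomes, stood at 4372 and 4599, with a log2 ratio of 0.07. Vamp3, the SNARE of recycling vesicles, stood at 4392 and 4480, with a log2 ratio of 0.03, and its partner Stx12 at 1332 and 1236, -0.11. In the retromer, which carries GLUT1 back to the surface, Vps35 had intensities of 4337 and 3931, giving a log2 ratio of -0.14, or 1.56 local spreads. Vps29 had 0.01, at 1681 and 1688. The third subunit Vps26a had 0.05 on its brighter probe set, at 742 and 765, and -0.34 on the other, at 805 and 637. This gap of 0.382 was the largest among members with at least 2 measured probe sets, and it leaves the direction of Vps26a unsettled. Vps26c and Vps35l, of the related retriever complex, had -0.04 and -0.01, and Vps50, of the endosomal tether EARP, had -0.07.

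**Figure D2:**
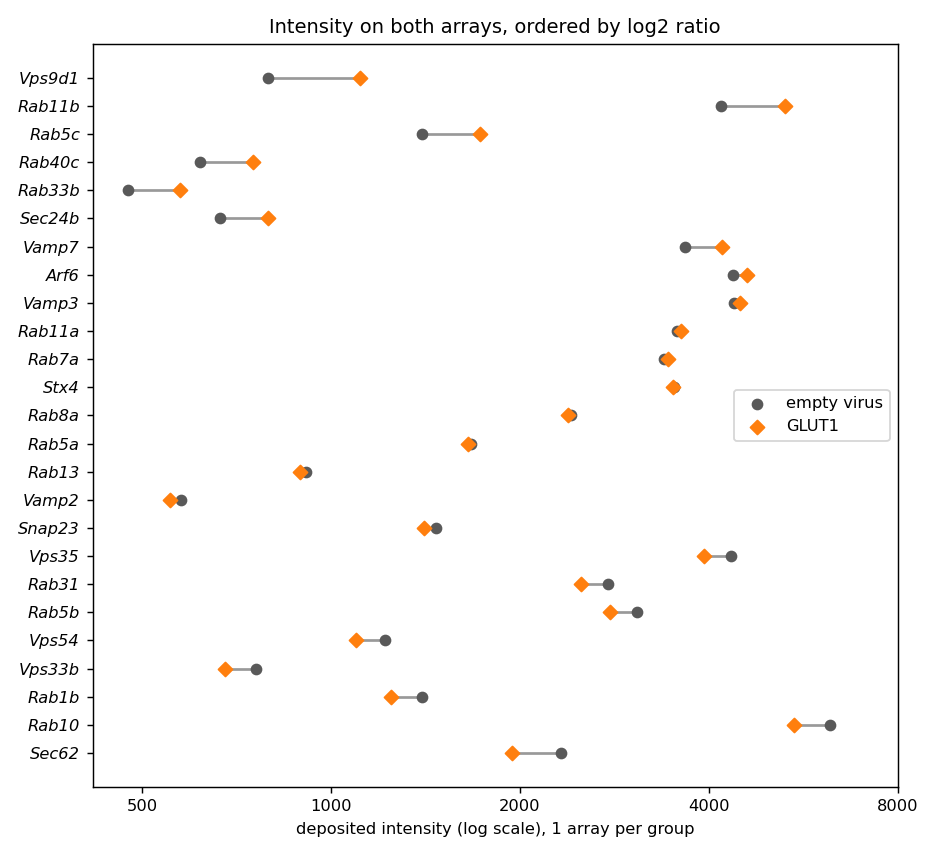
Deposited intensity (horizontal axis, log scale) of 25 members on the empty-virus array (grey circles) and on the GLUT1 array (orange diamonds), 1 array per group, ordered by log2 ratio. Vps9d1 (792 and 1113) and Rab11b (4180 and 5299) are at the top and Sec62 (2321 and 1944), the lowest, is at the bottom, while the markers of Stx4 and Rab8a almost coincide.

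On the way to the lysosome, 19 of 22 members were measured, with 10 above and 9 below 0 and a median log2 ratio of 0.02, and none was called. Vamp7, a SNARE of late endosomes and of lysosomes that fuse with the surface, had intensities of 3665 and 4203, giving a log2 ratio of 0.20, or 2.21 local spreads. Its only probe set was bright, so this smaller difference stood further out of the local spread than the called Sec24b and Rab33b. Vamp8, Stx7 and Stx8, the other SNAREs of late endosomes, had 0.05, 0.10 and -0.11. Rab7a, the main GTPase of late endosomes, stood at 3397 and 3443, with a log2 ratio of 0.02, and -0.01 on its second probe set. Rab9a, of the route from late endosomes to the Golgi, had -0.10, and Rab29 and Rab24 had -0.11 and 0.12.

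The HOPS complex tethers late endosomes to lysosomes. Its subunits Vps41, at 8078 and 7904, and Vps39, at 580 and 661, had log2 ratios of -0.03 and 0.19, and the core subunits Vps11 and Vps16 had -0.09 and -0.01. Vps33b, a relative of the HOPS subunit Vps33a, stood at 758 and 678, with a log2 ratio of -0.16. ESCRT proteins sort membrane proteins for degradation. Vps28, Vps37b and Vps37c of ESCRT-I had 0.07, 0.02 and 0.00, Vps36 of ESCRT-II had 0.10, and the ATPases Vps4a and Vps4b, which take the ESCRT filament apart, had 0.03 and -0.04.

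Sequence before the start of the genes gave a feature that the symbol rule had not used. TCACGTGA is the core of the CLEAR element, the site of TFEB and related factors in genes of lysosomes. It was found in the 250 bases before the start in 6 of 113 members (5.31%), beside 1.27% of 8610 genes on the array and 0.657% of all 33469 promoters of the table. The letters read the same on both strands. The 6 genes were Snap29, Stx6, Vps11, Vps16, Vps26a and Vps33a, of which 3 are subunits of HOPS. CACGTG, the E-box inside that core, was in 12.4% of members and 8.23% of array genes, the 6 included. TGACGTCA, the cyclic AMP response element (CRE), was in 5.31% and 2.72%, and GGGCGG, the GC box, in 69.9% and 57.3%, each on either strand. The 5 measured members with the CLEAR core had a median log2 ratio of 0.05, and the 84 without it 0.00. The 5 were Snap29 at 0.17, Stx6 at 0.15, Vps26a at 0.05, Vps16 at -0.01 and Vps11 at -0.09, and Vps33a lay below the filter at 116 and 221. The median of the 5 is thus the value of the brighter probe set of Vps26a. The other measured probe set of this gene had -0.34, so the difference between the medians rests on an unsettled reading.

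**Figure D3:**
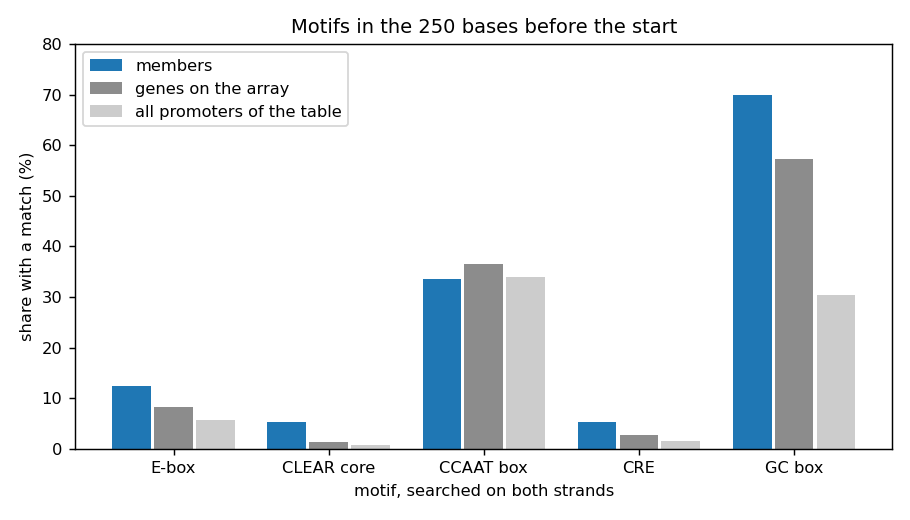
Share (vertical axis, %) of promoters with a match in the 250 bases before the start, for 5 motifs, in the 113 members with a promoter (blue), 8610 genes on the array (dark grey) and all 33469 promoters (light grey). The CLEAR core stands at 5.31%, 1.27% and 0.657%, while the CCAAT box lies near 34% in the members and in all promoters.

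The sequences that hold the CLEAR core are given with the core in capitals, as the element in its context, from RefSeq's GRCr8. CCAAT boxes are in capitals too, and only Stx6 of these has one. They run to the base before the gene's annotated span (Stx6 chr13:69882397-69882646, plus strand; Vps11 chr8:53595379-53595627, minus; Vps16 chr3:138075460-138075648, plus; Snap29 chr11:97113196-97113445, minus). For Vps33a (chr12:38685474-38685503, plus) and Vps26a (chr20:30976890-30976919, minus) 30 bases around the core are shown. Vps33a holds 2 copies. The annotated span of Vps26a begins 75 bases before the start used here, and that of Vps33a 40 bases before it. The core of Vps26a and the second copy of Vps33a thus lie inside the gene's span.
Stx6: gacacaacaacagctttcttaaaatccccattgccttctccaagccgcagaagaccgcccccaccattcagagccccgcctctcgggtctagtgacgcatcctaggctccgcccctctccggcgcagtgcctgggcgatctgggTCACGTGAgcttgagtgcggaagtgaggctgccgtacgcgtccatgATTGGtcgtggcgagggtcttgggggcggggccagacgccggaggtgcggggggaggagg
Snap29: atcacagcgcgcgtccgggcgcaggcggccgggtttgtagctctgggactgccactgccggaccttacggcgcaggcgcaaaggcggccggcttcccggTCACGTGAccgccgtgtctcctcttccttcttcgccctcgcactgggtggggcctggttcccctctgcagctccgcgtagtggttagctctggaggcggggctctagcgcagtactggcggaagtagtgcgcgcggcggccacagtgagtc
Vps11: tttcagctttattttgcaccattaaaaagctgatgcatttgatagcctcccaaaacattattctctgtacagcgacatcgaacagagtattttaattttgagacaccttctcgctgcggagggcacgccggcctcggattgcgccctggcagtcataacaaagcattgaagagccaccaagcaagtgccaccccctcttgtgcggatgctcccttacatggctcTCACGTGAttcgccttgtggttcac
Vps16: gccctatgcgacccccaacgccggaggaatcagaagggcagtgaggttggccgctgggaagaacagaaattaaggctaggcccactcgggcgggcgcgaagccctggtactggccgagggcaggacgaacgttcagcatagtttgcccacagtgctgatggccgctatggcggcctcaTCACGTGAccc
Vps33a: aggTCACGTGAacggtccgTCACGTGAccg
Vps26a: gtgcggctggtggcctacggTCACGTGAcg

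At the plasma membrane, 10 of 21 members were measured, with 2 above and 8 below 0, a median log2 ratio of -0.02 and none called. The 11 below the filter hold most of the genes known from regulated secretion in nerve and gland cells, namely Rab3a, Rab3b, Rab3c, Rab26, Rab27a, Rab27b, Snap25 and Stx1a, together with Stx3, Vamp1 and Vamp5. Of all 10411 genes, 4297 lay below the filter, so such a reading is common on this array. Snap25, the SNARE of synaptic vesicle release, was read at 99 and 91. Rab10, which carries vesicles to the surface and is best known for moving the transporter GLUT4 in fat cells, had intensities of 6240 and 5462, giving a log2 ratio of -0.19, or 2.02 local spreads. Its second probe set read 5151 and 4577, a log2 ratio of -0.17, so both readings of Rab10 were lower on the GLUT1 array by a like amount. The related Rab8a and Rab13, both also of exocytic routes, were read at 2412 and 2388 and at 911 and 893, log2 ratios of -0.01 and -0.03. Stx4, the SNARE that receives vesicles at the surface, was read at 3521 and 3505 (-0.01). Its partner Snap23 had -0.06, at 1471 and 1408, and -0.25 on a dimmer probe set, at 831 and 697. Vamp2, the SNARE on GLUT4 vesicles, was read at 576 and 554 (-0.05). Snap29 had 0.17, Rab3d 0.04, Rab8b -0.02 and Snap91, a clathrin adaptor of synapses rather than a SNARE, -0.09.

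The remaining Rabs and lipid-transfer proteins were few. Of 8 members 5 were measured, 1 above and 4 below 0. Rab40c, the Rab of a ubiquitin ligase complex, had intensities of 618 and 752, giving a log2 ratio of 0.28, or 1.63 local spreads, and was called higher. Rab28, at 5630 and 5243, had -0.10, Rab12, at 2484 and 2279, had -0.12 and -0.02 on its probe sets, and Rab18, found on lipid droplets, had -0.08. Vps13b, a lipid-transfer protein of the Golgi, had -0.12.

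A last set shares the symbols but not the role, or acts on the GTPases from outside, and 8 of its 12 genes were measured, 7 above and 1 below 0. Vps9d1, which has the domain that activates Rab5 proteins, had intensities of 792 and 1113, giving a log2 ratio of 0.49 (1.41-fold), or 2.97 local spreads. It had the largest log2 ratio of all measured members, by its only probe set. Rab3ip, the exchange factor that activates Rab8, had intensities of 655 and 761, giving a log2 ratio of 0.22, or 1.29 local spreads. Rab3gap2 had 0.11, Rab11fip5, a Rab11 effector, 0.01, and Rab5if, at 8384 and 8807, had 0.07. Vps72, which belongs to a chromatin remodelling complex, was read at 2297 and 2327 (0.02), and the lipid-binding Sec14l1 and Sec14l2 had 0.05 and -0.03. Without this set, 5 of 97 measured members were called higher (5.2%) and 1 lower (1.03%), beside 4.27% and 3.25% of all measured genes.

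**Figure D4:**
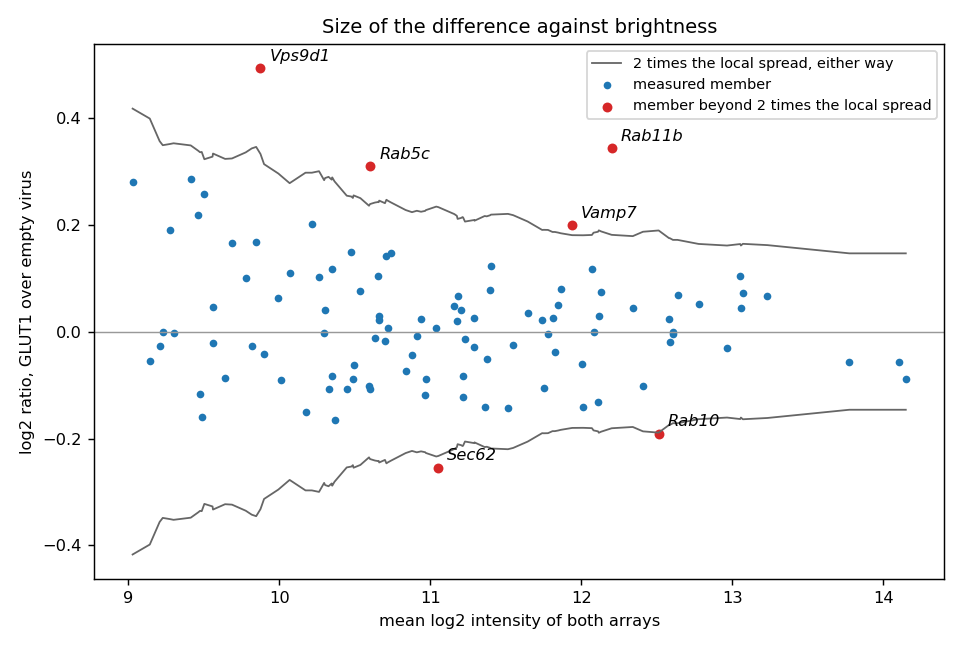
The log2 ratio (vertical axis, GLUT1 over empty virus) of the 105 measured members against their mean log2 intensity on both arrays (horizontal axis), with lines at 2 times the local spread either way. The lines narrow with brightness, and 6 members lie outside them: Vps9d1, Rab5c, Vamp7 and Rab11b above, Sec62 and Rab10 below.

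Sorted by protein family, the medians were also near 0. The 30 measured Rab GTPases of 44 had a median log2 ratio of -0.02, with 4 called higher (13.3%) and 0 lower, beside 4.27% and 3.25% of all measured genes. The 4 are Rab11b, Rab5c, Rab40c and Rab33b, and Rab40c and Rab33b lay within 2 local spreads. Rab33b also passed the filter only through its higher GLUT1 reading. The 17 measured SNAREs of 23 had a median of 0.03 and the 21 measured Vps proteins of 25 a median of -0.01, with none called in either family. All 6 Arf genes were measured, with a median of 0.07, 4 above and 2 below 0.

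The only repeat reading inside these arrays is a second probe set for the same gene. Of the members, 20 had at least 2 measured probe sets, and the brightest pair pointed the same way in 12, or 60%, beside 50.9% of 702 such pairs over all genes. From these pairs a single log2 ratio had an SD of 0.124 among members and 0.135 over all genes, about as large as the SD of 0.122 among the members' own log2 ratios. The pairs include the dimmer probe sets, whose log2 ratios spread more, while the members' own values come from the brightest. The pair SD is therefore not the error of the values given for the members. Of the members past 2 times the local spread, Rab10 alone was read alike by a second measured probe set, Rab11b and Sec62 were not, and Vps9d1, Rab5c and Vamp7 have a single probe set each.

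**Figure D5:**
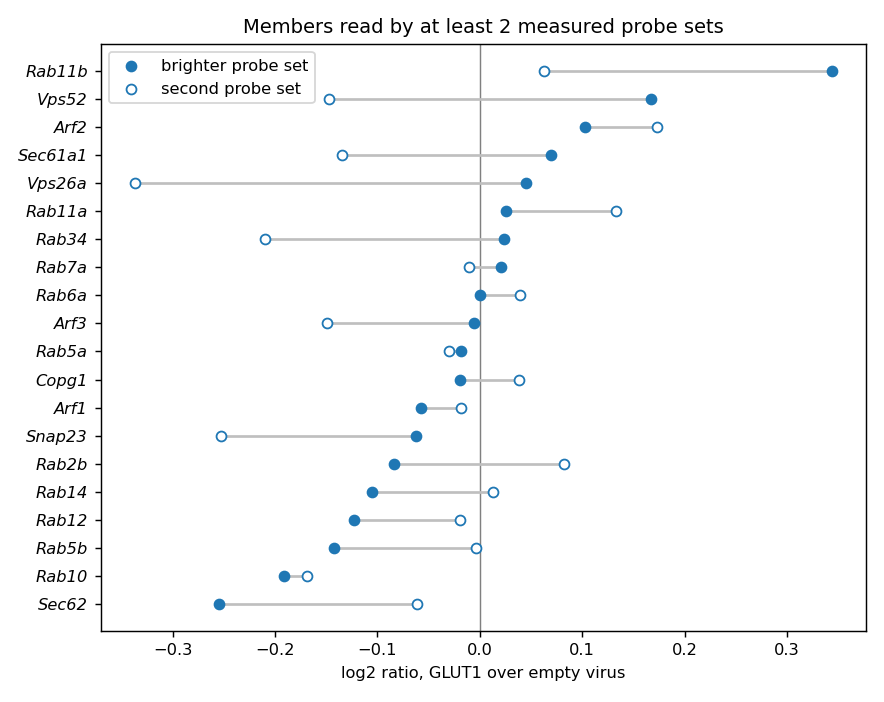
The log2 ratio (horizontal axis) of the brighter (filled) and the second (open) measured probe set of 20 members, joined by a line. The markers of Rab10 (-0.19 and -0.17) lie close together, while those of Rab11b (0.34 and 0.06), Vps52 (0.17 and -0.15) and Vps26a (0.05 and -0.34) lie far apart.

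Other genes of vesicle traffic that the symbol rule does not cover gave a like picture. From 6 lists, 100 of 113 genes on the array were measured, 51 above and 49 below 0, with a median log2 ratio of 0.00, 4 called higher (4%) and 2 lower (2%). These shares are near or below the 4.27% and 3.25% of all measured genes, so the genes named next are a description of the ends of the lists. Genes of the GTPase cycle and tethers of COPII and COPI vesicles had a median of 0.05 over 20, and further SNAREs with the proteins that recycle them 0.03 over 10. Cargo receptors had -0.01 over 21, clathrin and its adaptors -0.01 over 19, exocyst, sorting nexin and ESCRT genes -0.01 over 21, and genes that escort, prenylate or switch Rabs -0.02 over 9. The highest were Tmed1, a receptor of the p24 family, at 854 and 1098 (0.36), the ESCRT-III gene Chmp2b at 813 and 993 (0.29), and Trappc5, of the TRAPP tether that activates Rab1, at 721 and 878 (0.29). The lowest were Stxbp2, a regulator of syntaxins, at 650 and 505 (-0.36), Snx27, the sorting nexin that binds GLUT1, at 747 and 625 (-0.26), and Mcfd2, a cargo receptor subunit, at 4121 and 3499 (-0.23). Of these 6, Tmed1 and Mcfd2 lay beyond 2 times the local spread.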

How the data were processed

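The deposited table holds 1 linear intensity per probe set and array, rounded to whole numbers, for 15923 probe sets. Both arrays have a median of 508, so the intensities had been equalised by the submitters before they were deposited; the sources used here do not give the software, summary method or background correction. Per the labels, 5 µg of total RNA was labelled with biotin.

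Probe sets with a single gene (12783) were named from the platform annotation; 12748 were found in the current rat gene table. The GLUT1 array was scaled by 0.00135 log2 units, the value that put the median log2 ratio of the brighter probe sets at 0. Intensities were floored at the 25th percentile (175) before log2 was taken, and each gene was read by its brightest probe set. Python 3.11.15, numpy and pandas were used, and the steps were tested on simulated data.

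Members were sorted by known organelle. Named are the 8 highest and 8 lowest measured members, per organelle the 2 brightest and the one farthest from 0, 17 well-known members, members whose probe sets differ by over 0.25, and the 3 highest and 3 lowest other traffic genes. Remaining members were named after their values were seen. The members and lists were chosen with earlier results of these data known. Alternatives covered scaling, floor, filter, probe-set averaging and size threshold. The number of arrays limits the precision.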

Additional observations from a re-analysis of the deposited data

Results flagged for a closer look

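A probe set that lists both Rab1a and Rab1b has no single gene and so entered no gene value. It was read at 263 on the empty-virus and 441 on the GLUT1 array, a log2 ratio of 0.75, below the brightness filter. It is given here because a probe set outside the gene comparison exceeded the control array by more than 0.25. Another probe set that lists both genes was read at 37 on the empty-virus and 55 on the GLUT1 array. Both readings lie below the floor, so its log2 ratio of 0.00 gives no direction. The probe sets that name Rab1a or Rab1b alone had log2 ratios of -0.06 and -0.16.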

How the results depend on the processing

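No paired analysis was possible because neither condition has a second array. The median of the members stayed between -0.0021 and 0.0031 under the alternatives tried. The count of 6 members higher and 1 lower became 12 and 5 at a threshold of 0.15, and 1 and 0 at 0.40. With no brightness filter 8 members were higher and 6 lower. No share of all genes is given at these other thresholds and filters, so such counts cannot be set beside a background. With a filter at the 75th percentile 2 were higher, and the median of the COPI and Golgi group moved from 0.03 to 0.00 over 15 members; both follow from the fewer genes left. Averaging all probe sets of a gene, or (chosen after seeing the data) only the measured ones, left 0 lower, since Sec62 came to -0.16, and brought Rab11b to 0.20 and Vps26a to -0.15. A threshold of 2 times the local spread, also chosen after seeing the data, gave 2 lower. Of 314 values of named members under these alternatives, 310 moved by less than the local spread and 0 changed sign among those called. The floor and filter settings cannot alter the log2 ratio of a named member, and averaging alters only genes with several probe sets. Many of these values were therefore fixed in advance, and the count is no measure of stability. The deposited intensities were already equalised, so settings of the scaling say little about stability. Low brightness limits the dim members most.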

Other observations

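Some members below the brightness filter had larger log2 ratios than most measured ones. Past 0.25 either way lay 5 that were lower and 2 that were higher on the GLUT1 array, all named after their values were seen. The share of all genes below the filter that lay past this size is not given here, so these counts are a description only. Rab38, a GTPase of pigment granules and related lysosomes, stood at 357 and 240, with a log2 ratio of -0.57. Rab15, of recycling endosomes, was read at 367 and 253 (-0.54), and its dimmer probe set at 194 and 210 gave 0.12. Rab20, a GTPase of endosomes and phagosomes, was read at 388 and 274 (-0.50). Rab25, an epithelial relative of Rab11, was read at 264 and 211 (-0.32), and Rab23, a regulator of Hedgehog signalling, at 326 and 266 (-0.29). On the higher side were Vps33a, of the HOPS tether, at 116 and 221 (0.34), and Rab26, of secretory granules, at 128 and 209 (0.26), both at the floor of 175 on the empty-virus array, so these log2 ratios depend on the floor. Of the 30 members below the filter, 7 were at the floor on both arrays and 5 on one, so their order has no meaning there. The vesicle gene Vps25 shares its probe sets with other genes and has no value of its own here.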
